A study of Mus musculus with 6 samples.

Results

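Genes of the contractile apparatus and calcium cycling of heart muscle cells were examined in RNA from the pharyngeal region of mouse embryos. They were chosen by gene symbol from a list of 38 genes. Of these, 36 were among the 14647 genes of the deposited table, and all 36 passed the filter on low values. *Myom2* and *Sln* were not analysed here. The study compared 3 *Pax9*-null (*Pax9*-/-) embryos with 3 stage-matched wild-type embryos at embryonic day (E) 9.5, of mixed sex, with 1 sequencing library per embryo. *Pax9* encodes a transcription factor of the pharyngeal endoderm. The piece taken for RNA spanned the caudal pharyngeal arches, with its upper edge below the first arch and its lower edge where the heart begins, and the share of heart muscle in the dissected piece was not measured separately. The sample labels describe sorted cells and another library protocol, whereas the study's methods describe whole dissected tissue, and the methods were followed here. Values are log2 RPKM, that is, reads scaled to gene length and library size on a log2 scale, so that levels can be compared between genes.

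The sarcomere shortens as myosin heads on the thick filament pull on actin in the thin filament, while Z-discs anchor the thin filaments. Calcium starts each beat: it is released from the sarcoplasmic reticulum through the ryanodine receptor, binds troponin C on the thin filament, and is then pumped back into the reticulum or exported by the sodium-calcium exchanger. In the embryo the heart tube already beats at this stage, and atrial and ventricular muscle begin to differ in their myosin chains and natriuretic peptides.

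Effective library sizes ran from 11509897 to 12692317 reads. *Pax9* itself, the check of the genotype labels, had log2 RPKM of −0.43, −0.63 and −0.59 in *Pax9*-null replicates 1 to 3 and of 0.63, 0.71 and 0.96 in wild-type replicates 1 to 3. Summed RPKM of 7 pharyngeal endoderm markers ran from 179.4 to 269.7 over the libraries, and the lowest was wild-type replicate 3. That library stood apart from the other 5 in its heart muscle genes, and the calls for those genes are therefore given with it and without it. In bulk tissue, fewer cells of a type and less RNA per cell cannot be told apart.

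Heart muscle transcripts were abundant in 5 libraries and scarce in the other. The RPKM of the 36 genes summed to 2410.9, 2058.8 and 1896.8 in the *Pax9*-null replicates, to 2195.8 and 2256.5 in wild-type replicates 1 and 2, and to 223.6 in wild-type replicate 3. The *Pax9*-null sums and the first 2 wild-type sums overlapped, with no *Pax9*-null sum near that of wild-type replicate 3. The highest levels were those of *Myl7*, the atrial regulatory light chain of myosin, and *Actc1*, cardiac alpha-actin of the thin filament. The log2 RPKM of *Myl7* was 9.53, 9.22 and 9.19 in the *Pax9*-null replicates and 8.83, 9.23 and 4.55 in the wild-type replicates. *Actc1* had 9.17, 8.95 and 8.62 against 9.03, 9.14 and 5.37, and it exceeded *Myl7* in wild-type replicates 1 and 3. In the 5 libraries other than wild-type replicate 3, the next levels in log2 RPKM were those of *Myl2* (6.90 to 7.48), *Tnnc1* (troponin C, 6.66 to 6.88) and *Tpm1* (tropomyosin, 6.46 to 6.62), which did not overlap with each other. *Atp2a2*, the calcium pump of the sarcoplasmic reticulum, overlapped with both *Tnnc1* and *Tpm1* at 6.05 to 6.93, and *Slc8a1*, the sodium-calcium exchanger, overlapped with *Atp2a2* at 5.95 to 6.30. At the other end was *Casq2*, at −1.46 to 0.29.

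**Figure D1:**
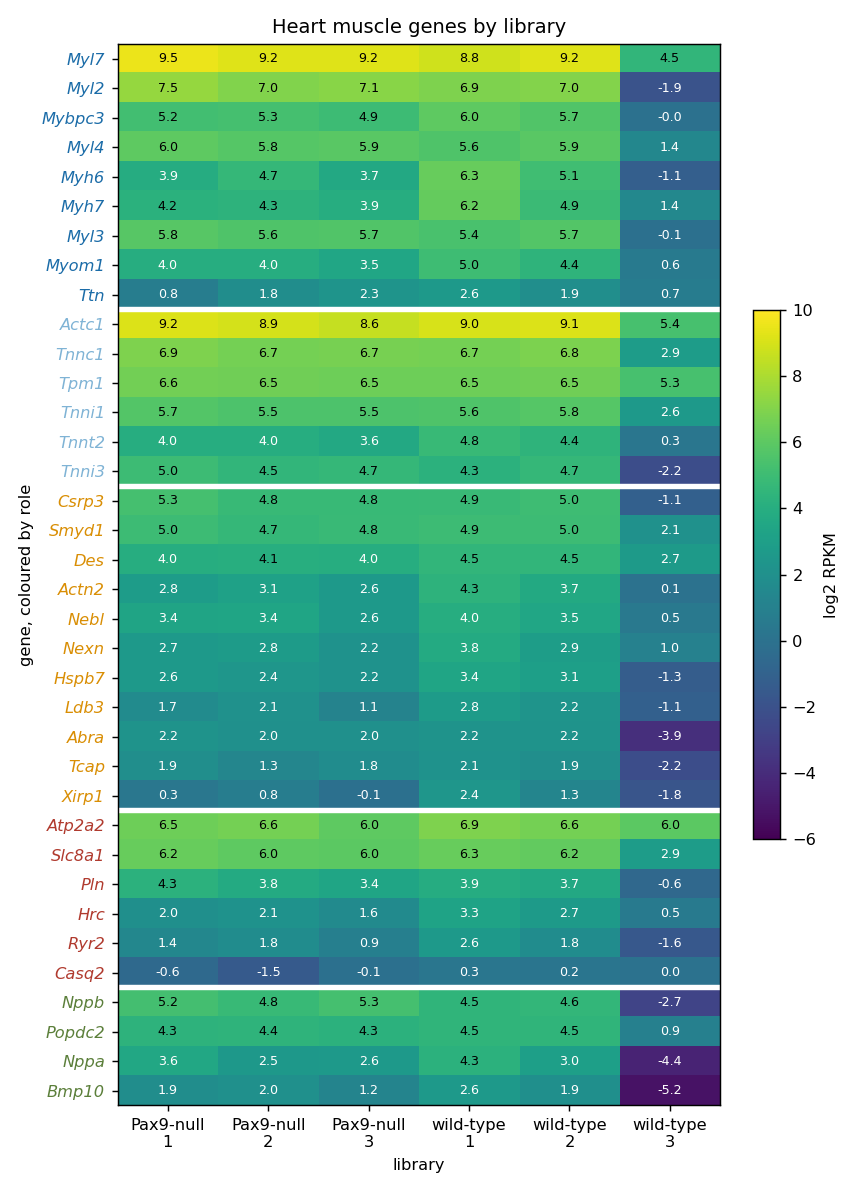
Heat map of the log2 RPKM of the 36 heart muscle genes (rows, coloured and grouped by role) in the 6 libraries (columns), with each value printed in its cell. In 35 of the 36 genes the lowest cell is that of wild-type replicate 3, and *Casq2* is the exception.

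The bases upstream of the start were read from RefSeq (build GRCm38.p6) for 31 of the 38 named genes, which had 40 start windows of 250 bases. Sequences are shown for some of the genes that carried a recognition sequence of muscle transcription factors. In *Actc1*, *Myl7*, *Myl3* and *Myom1* the capitals mark a CArG box, the site of serum response factor, and in *Casq2* they mark a MEF2 site, the site of myocyte enhancer factor 2. The windows lie at chr2:114052876-114053125 on the minus strand, chr11:5898783-5899032 on the minus strand, chr9:110763428-110763677 on the plus strand, chr17:71019307-71019556 on the plus strand and chr3:102086165-102086414 on the plus strand, in that order.
Actc1: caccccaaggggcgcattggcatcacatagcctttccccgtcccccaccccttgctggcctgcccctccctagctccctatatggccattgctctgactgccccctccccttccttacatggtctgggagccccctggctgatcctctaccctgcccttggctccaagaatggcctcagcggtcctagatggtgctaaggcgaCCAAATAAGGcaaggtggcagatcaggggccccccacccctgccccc
Myl7: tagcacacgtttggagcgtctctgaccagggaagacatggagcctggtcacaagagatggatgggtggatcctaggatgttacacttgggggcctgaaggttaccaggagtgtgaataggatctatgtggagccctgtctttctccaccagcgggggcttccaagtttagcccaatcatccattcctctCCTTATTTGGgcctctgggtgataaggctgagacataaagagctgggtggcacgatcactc
Myl3: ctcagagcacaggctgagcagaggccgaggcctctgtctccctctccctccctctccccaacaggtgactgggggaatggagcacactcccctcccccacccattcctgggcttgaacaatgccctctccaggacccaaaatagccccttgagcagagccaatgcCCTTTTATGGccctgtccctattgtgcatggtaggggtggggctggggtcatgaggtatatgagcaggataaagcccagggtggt
Myom1: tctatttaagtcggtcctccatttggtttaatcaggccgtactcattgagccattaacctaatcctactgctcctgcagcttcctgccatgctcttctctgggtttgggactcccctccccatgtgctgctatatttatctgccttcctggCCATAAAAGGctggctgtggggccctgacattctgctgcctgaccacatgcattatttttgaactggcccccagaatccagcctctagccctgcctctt
Casq2: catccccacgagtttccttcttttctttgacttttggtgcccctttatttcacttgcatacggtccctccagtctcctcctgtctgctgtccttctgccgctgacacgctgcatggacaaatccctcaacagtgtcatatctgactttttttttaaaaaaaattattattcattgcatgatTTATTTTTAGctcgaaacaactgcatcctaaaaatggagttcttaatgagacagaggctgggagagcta

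Counted from the start, the CArG box lay at −47 to −38 in *Actc1*, −61 to −52 in *Myl7*, −85 to −76 in *Myl3* and −99 to −90 in *Myom1*, and the MEF2 site of *Casq2* lay at −69 to −60. Both strands were searched. A CArG box was found in 17.5% of the windows of these genes, against 1.5% of all 32851 windows of that length, in 6 genes: *Actc1*, *Ldb3*, *Myl3*, *Myl7*, *Myom1* and *Nebl*. Overlapping windows of *Ldb3* held the same box, which was counted in each, and *Nebl* had a box in only 1 of its windows. Windows of a gene can overlap, so that the shares of windows do not count separate sites. None of these boxes overlapped another of the motifs searched. A MEF2 site was found in 7.5% of windows against 2.9%, in *Casq2*, *Mybpc3* and *Ttn*. The letters AGATAA, which GATA factors bind, were in 25% of windows against 10%, and CATTCC, the site of TEAD factors, in 25% against 12.6%. The E-box CANNTG was in 80.0% against 66.2%, and TATAAA in 12.5% against 12.4%. These matches describe letters and are not evidence of binding.

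Wild-type replicate 3 was the lowest of the 6 libraries in 35 of the 36 genes, where this held for 14.1% of all tested genes. It lay below the mean of wild-type replicates 1 and 2 by over 2 on the log2 scale in 31 of the 36 (86.1%), whereas 135 of all tested genes (0.997%) did so. Heart muscle genes made up 23.0% of those 135. The median of the 36 genes was 6.13% of the mean level of the other wild-type replicates. It was a single library, so no test was made of its distance from the others.

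The level left in that library differed between genes of the same role. Of the thick filament genes, *Myl2*, the ventricular regulatory light chain, had log2 RPKM of 7.48, 6.96 and 7.14 in the *Pax9*-null and 6.90, 7.03 and −1.91 in the wild-type replicates, which rested on 4024, 2798 and 3222 reads against 2964, 3144 and 6 reads. This was 0.213% of the mean level in wild-type replicates 1 and 2. *Myh6*, the atrial-enriched heavy chain, stood at 0.89%, and *Myh7*, the ventricular-enriched heavy chain, at 5.84%. *Myl7* retained 4.47% on 173 reads, *Myl4* (the atrial essential light chain) 4.86% and *Myl3* (the ventricular essential light chain) 2.03%. *Mybpc3*, myosin-binding protein C, was at 1.7% and *Myom1*, which crosslinks thick filaments at the M-band, at 5.9%. *Ttn*, the giant spring protein of the sarcomere, was less depleted, at 34.8%.

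In the thin filament, *Tnni3*, the adult cardiac form of troponin I, was at 0.952% of the mean of the other wild-type replicates. It had 748, 546 and 617 reads in the *Pax9*-null replicates, 515 and 646 in wild-type replicates 1 and 2, and 5 in wild-type replicate 3. *Tnni1*, the slow skeletal form that also serves the embryonic heart, was at 12.0%. *Actc1* was at 7.6%, *Tnnc1* at 6.72% and *Tnnt2*, troponin T, at 5.14%. *Tpm1*, which is widely expressed outside muscle as well, was at 44.4%.

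Among the genes of the Z-disc, of intermediate filaments and of sarcomere assembly, *Csrp3*, a Z-disc LIM protein, and *Smyd1*, a methyltransferase needed for myofibril assembly, had the highest levels, and each exceeded the other in 3 of the 6 libraries. The log2 RPKM of *Csrp3* was 5.26, 4.80 and 4.77 in the *Pax9*-null and 4.87, 5.05 and −1.11 in the wild-type replicates, and the last of these was 1.48% of the mean of the others. That of *Smyd1* was 4.98, 4.65 and 4.83 against 4.94, 4.97 and 2.12, the last being 14.0%. *Actn2* (alpha-actinin of the Z-disc) was at 6.36%, *Ldb3* (a Z-disc adaptor) at 8.24%, *Nebl* (nebulette) at 10.5% and *Xirp1* (an actin-binding repeat protein) at 8.22%. *Nexn*, an actin-binding Z-disc protein, was at 20.1%, and *Des*, the muscle intermediate filament desmin, at 28.3%. *Hspb7*, a small heat shock protein of heart muscle, was at 4.43%. *Tcap*, which binds titin at the Z-disc, had 2 reads in wild-type replicate 3 against 27 to 53 elsewhere, and *Abra*, an actin-binding protein of striated muscle, had a log2 RPKM of −3.87 there against 2.03 to 2.24 elsewhere.

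The secreted factors were almost undetected in wild-type replicate 3. *Nppa*, the atrial natriuretic peptide, had 119, 57 and 62 reads in the *Pax9*-null and 210, 87 and 0 reads in the wild-type replicates. With a floor of 3 reads for that library, it was at least 69.4-fold lower there than in wild-type replicate 1 and at least 29.5-fold lower than in wild-type replicate 2. *Nppb*, the B-type natriuretic peptide, had 332, 243 and 354 against 216, 236 and 1 reads. *Bmp10*, a growth factor secreted by the trabecular myocardium, had 187, 210 and 120 against 350, 214 and 1. *Popdc2*, a membrane protein of the Popeye family that binds cyclic AMP, was at 8.74%. Small read counts such as these are imprecise, and no molecular identifiers were stated.

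Calcium genes ranged from 4.77% to 87.4% of the mean of the other wild-type replicates. *Casq2*, the cardiac calsequestrin that stores calcium in the reticulum, was the 1 gene of the 36 that was not lowest in wild-type replicate 3, with 21, 11 and 30 reads in the *Pax9*-null and 42, 38 and 35 reads in the wild-type replicates. These counts were small. *Atp2a2* was at 56.4%, and it is expressed in many tissues. Its log2 RPKM was 6.48, 6.64 and 6.05 against 6.93, 6.64 and 5.96. By contrast *Ryr2*, the ryanodine receptor, was at 7.32%, *Pln* (phospholamban, which inhibits the pump) at 4.77%, *Slc8a1* at 9.65% and *Hrc* (a calcium-binding protein of the reticulum) at 18.0%.

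**Figure D2:**
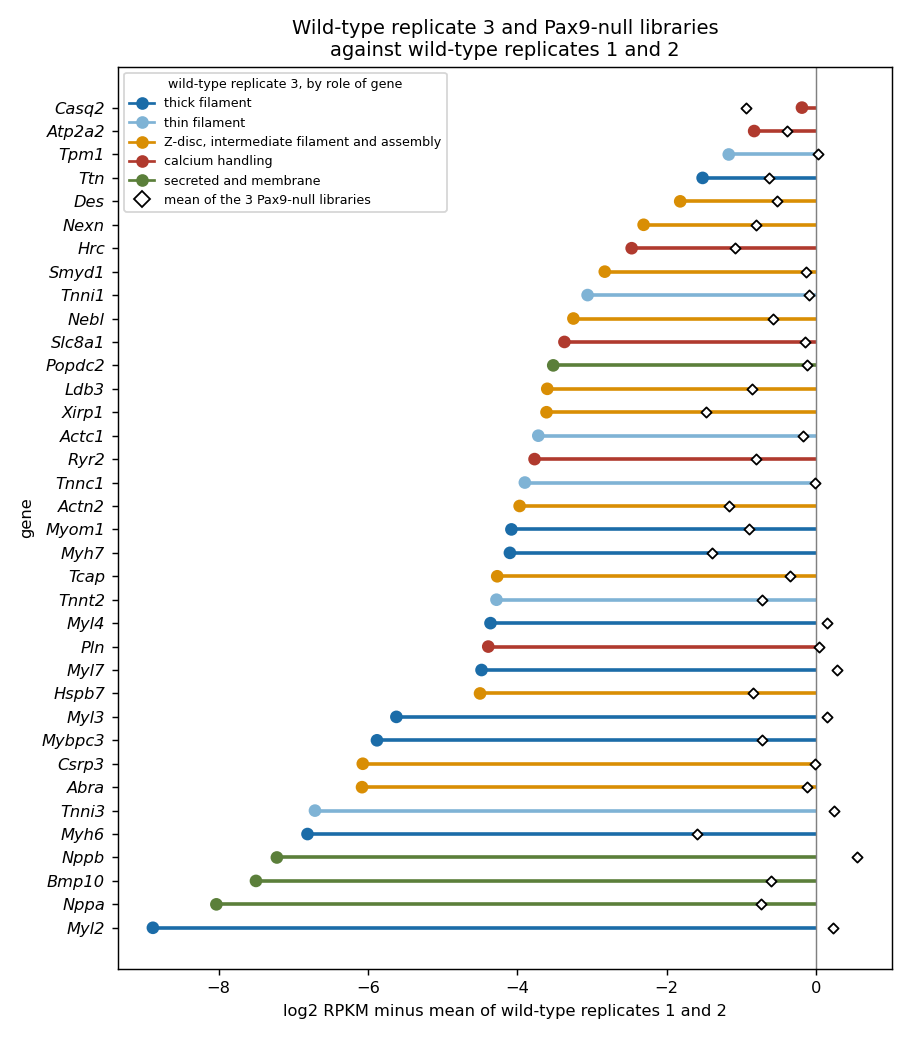
Wild-type replicate 3 (filled points, coloured by role) and the mean of the 3 *Pax9*-null libraries (diamonds) minus the mean of wild-type replicates 1 and 2, in log2 RPKM, for the 36 heart muscle genes (rows). In wild-type replicate 3, 31 of the 36 genes lie below −2, and *Casq2*, *Atp2a2*, *Tpm1*, *Ttn* and *Des* lie nearest 0.

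Markers of other muscle and of neighbouring tissue varied alongside in part. Summed RPKM of 7 smooth muscle markers was 298.5 and 299.9 in wild-type replicates 1 and 2 and 56.6 in wild-type replicate 3, with 5 of the 7 lowest there. *Acta2* made up most of these sums, with 271.3, 278.2 and 48.3 RPKM. By contrast *Smtn* and *Mylk* lay at 0.011 and −0.13 on the log2 scale from the mean of the other wild-type replicates. The 6 skeletal muscle markers summed to 72.4, 85.8 and 25.4 in the wild-type replicates, but only 3 of the 6 were lowest in wild-type replicate 3. *Acta1*, skeletal alpha-actin, made up most of these sums, with 55.2, 71.1 and 8.1 RPKM, whereas *Myh3*, *Myf5* and *Myog* were higher there than the mean of the other wild-type replicates, by 0.97, 0.73 and 0.23 on the log2 scale. Of 9 endothelial and endocardial markers 3 were lowest in wild-type replicate 3, with sums of 116.0, 79.4 and 64.4. None of 8 neural tube markers was lowest there, and their sums were 96.8, 132.6 and 194.0. *Tubb3* weighed most in these sums, with 55.7, 65.7 and 118.0 RPKM, and *Sox2* had 29.4, 48.2 and 52.6. *Olig2* (0.696, 1.78 and 1.39) and *Nkx6-1* (1.95, 3.88 and 3.74) were lower in wild-type replicate 3 than in wild-type replicate 2. The part of all these markers in the results for heart muscle genes was not tested.

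With all 6 libraries, limma called 0 of the 36 heart muscle genes between the genotypes, whereas it called 26.7% of the 13547 tested genes (12.0% lower and 14.7% higher in *Pax9*-null embryos). Only 1 of the 36 had an unadjusted P under 0.05, which was *Casq2*. The median log2 fold change of the 36 genes was 0.87, against −0.0012 over all tested genes, and 7 of the 36 lay below 0. The *Pax9*-null replicates had a median SD of 0.26 on the log2 scale over the 36 genes and the wild-type replicates one of 2.35, whereas it was 0.15 and 0.17 over all tested genes. The values of the genotypes did not overlap in 2 genes, *Casq2* and *Nppb*, against 41.9% of all tested genes. *Casq2* had log2 RPKM of −0.56, −1.46 and −0.074 in the *Pax9*-null and 0.29, 0.19 and 0.046 in the wild-type replicates, all 3 of the former lying below. The fold change on the log2 scale was −0.87, with a standard error of 0.35 and an adjusted P of 0.122 by limma, and with 6 libraries it passed the threshold of 0.1 only on a log2(RPKM + 1) scale (adjusted P of 0.0995), where it was the 1 gene of the 36 called.

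Without wild-type replicate 3, part of the list differed. Of the 36 genes 11 were called by limma, where 15.8% of all tested genes were. In 10 the level was lower in *Pax9*-null embryos (background 6.64%) and in 1 it was higher (background 9.16%). The median log2 fold change was −0.46, against −0.0095 over all tested genes, and 28 of the 36 lay below 0. The genotypes did not overlap in 17 genes, against 50.0% of all tested genes. These calls rest on 2 wild-type libraries. Wild-type replicate 1 lay above wild-type replicate 2 in 22 of the 36 genes and in 6694 of the 13547 tested genes. It lay above in each of the 10 genes called lower, by 0.0086 (*Des*) to 1.33 (*Myh7*) on the log2 scale. In *Nppb*, the gene called higher, it lay below.

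Both myosin heavy chains were lower. *Myh6* had log2 RPKM of 3.90, 4.68 and 3.67 in the *Pax9*-null and 6.27 and 5.10 in wild-type replicates 1 and 2, and −1.13 in wild-type replicate 3. The groups did not overlap without that last value. The fold change on the log2 scale was then −1.60, with a standard error of 0.37 and an adjusted P of 0.0606 by limma. *Myh7* had 4.23, 4.32 and 3.94 against 6.21, 4.89 and 1.45. It too was lower, by a log2 fold change of −1.39 (standard error 0.33, adjusted P of 0.063). Of the stretches of 100 bases in *Myh6* transcripts, 10.04% also occur in *Myh7*, and 7.71% of those of *Myh7* occur in *Myh6*, so that the counts of this pair are uncertain where reads fell there. Exons of both genes also overlap transcripts of the opposite strand, and the study counted reads with default settings, which do not use strand, so that reads of the opposite strand cannot be told apart.

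*Mybpc3* and *Myom1*, of the same filament, were also lower. *Mybpc3* had log2 RPKM of 5.16, 5.28 and 4.94 in the *Pax9*-null and 6.05, 5.66 and −0.023 in the wild-type replicates, and its log2 fold change without the last was −0.73 (standard error 0.15, adjusted P of 0.0476 by limma). *Myom1* had 3.97, 3.96 and 3.45 against 5.0, 4.38 and 0.61. This gave −0.89 (standard error 0.22, adjusted P of 0.0654), again with no overlap once wild-type replicate 3 was left out. Of the 9 thick filament genes 4 were called lower and none higher. The light chains were not called, at 0.23 for *Myl2*, 0.14 for *Myl3*, 0.14 for *Myl4* and 0.28 for *Myl7*, with adjusted P of 0.37, 0.502, 0.518 and 0.356. Nor was *Ttn* (−0.63, adjusted P of 0.337).

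In the thin filament, *Tnnt2* alone was called of 6 genes. It had log2 RPKM of 3.96, 3.96 and 3.63 in the *Pax9*-null and 4.75, 4.41 and 0.29 in the wild-type replicates, with a log2 fold change of −0.73 without the last (standard error 0.15, adjusted P of 0.0486 by limma). *Actc1* was at −0.17, *Tnni1* at −0.1, *Tnnc1* at −0.014, *Tpm1* at 0.021 and *Tnni3* at 0.24, all with adjusted P over 0.1. The value for *Actc1* had a standard error of 0.20, which was larger than the difference.

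All 11 genes of the Z-disc, intermediate filament and assembly group lay below 0, and 4 were called. *Actn2* had log2 RPKM of 2.84, 3.14 and 2.63 in the *Pax9*-null and 4.34, 3.74 and 0.062 in the wild-type replicates. It had the lowest adjusted P of the 36, at 0.033 for a log2 fold change of −1.16 (standard error 0.21, limma). *Des* was lower by a log2 fold change of −0.53 (standard error 0.10, adjusted P of 0.0398), from 3.97, 4.06 and 3.99 against 4.54 and 4.53, with 2.71 in wild-type replicate 3. *Hspb7* stood at 2.62, 2.41 and 2.17 against 3.41, 3.06 and −1.26, which gave −0.83 (standard error 0.18, adjusted P of 0.0525). *Xirp1* stood at 0.32, 0.79 and −0.065 against 2.39, 1.27 and −1.77, which gave −1.48 (standard error 0.37, adjusted P of 0.0656). All 4 were separate between genotypes only without wild-type replicate 3. The other 7 had log2 fold changes from −0.86 (*Ldb3*) to −0.019 (*Csrp3*) and were not called.

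Of the 6 calcium genes only *Hrc* was called. It had log2 RPKM of 1.98, 2.13 and 1.65 in the *Pax9*-null and 3.27, 2.72 and 0.53 in the wild-type replicates, with a log2 fold change of −1.08 (standard error 0.22, adjusted P of 0.044 by limma, without the last). *Ryr2* was at −0.81 (adjusted P of 0.132), from 1.40, 1.75 and 0.90 against 2.57, 1.76 and −1.61, and *Casq2* at −0.94 (adjusted P of 0.156). *Pln*, at 4.30, 3.76 and 3.43 against 3.90, 3.67 and −0.60, gave 0.043 and did not separate the genotypes. *Atp2a2* was at −0.40 and *Slc8a1* at −0.14, and neither was called.

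*Nppb* was the 1 gene called higher. Its log2 RPKM was 5.20, 4.76 and 5.27 in the *Pax9*-null and 4.45, 4.62 and −2.69 in the wild-type replicates, and the log2 fold change without the last was 0.55 (standard error 0.16, adjusted P of 0.0869 by limma). With trends in gene length and GC content removed, it was −0.15. *Nppa* had −0.74 (adjusted P of 0.248) from 3.58, 2.53 and 2.62 against 4.26, 3.03 and −4.38, and *Bmp10* had −0.60 (adjusted P of 0.205). The 4 atrial-enriched genes (*Myh6*, *Myl4*, *Myl7* and *Nppa*) included 1 called lower, and the 3 ventricular-enriched genes (*Myh7*, *Myl2* and *Myl3*) likewise included 1. The atrial-enriched genes as a group were not tested against the ventricular-enriched genes. Pairs of single genes from these groups are compared within libraries below.

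**Figure D3:**
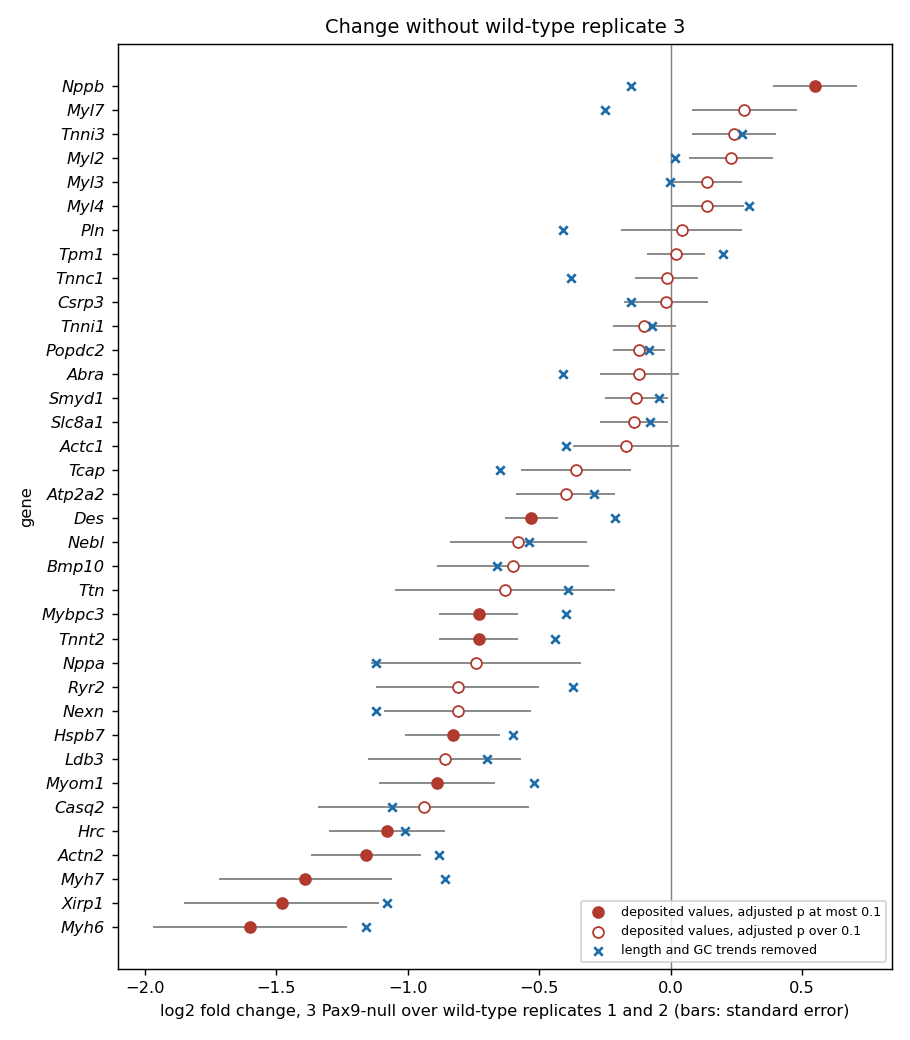
Log2 fold change of *Pax9*-null against wild-type replicates 1 and 2 for the 36 heart muscle genes (rows), with bars of 1 standard error, filled points for the genes called and crosses for the values with length and GC trends removed. There are 10 genes called lower, from *Des* (−0.53) to *Myh6* (−1.60), and *Nppb* (0.55) is called higher.

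The calls depended on single libraries and on processing. With one more library left out, limma called 1 of the 36 genes without *Pax9*-null replicate 1, 0 when *Pax9*-null replicate 3 was dropped (13 with an unadjusted P under 0.05) and 2 without wild-type replicate 1, where it called 2.02%, 0.93% and 2.62% of all tested genes. Without *Pax9*-null replicate 2 it called 14, against 15.4% of all tested genes. The count of heart muscle genes thus rose from 11, whereas the share of all tested genes fell from 15.8%. Without *Pax9*-null replicate 1 or 3, both were lower than with the 5 libraries. Over the alternatives, the adjusted P of *Actn2* ran from 0.00106 to 0.168 and it was called in 13 of 16. Those of *Mybpc3* ran from 0.0029 to 0.527 and those of *Nppb* from 0.0386 to 0.688. Without wild-type replicate 3, the 10 genes called lower kept their direction in every alternative run, and *Nppb* did so in 14 of 16. With all 6 libraries the log2 fold change was above 0 in *Myh6* (0.67), *Tnnt2* (0.70), *Mybpc3* (1.23), *Myom1* (0.47), *Actn2* (0.16), *Des* (0.081) and *Hspb7* (0.67). It was below 0 in *Myh7* (−0.019), *Xirp1* (−0.28) and *Hrc* (−0.25).

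Longer genes had lower fold changes than shorter ones. Without wild-type replicate 3, Spearman's rank correlation between fold change and gene length was −0.48 across the 36 genes and −0.40 across all tested genes. With GC content it was −0.24 and −0.43. Genes are not independent replicates, and all share the same 5 libraries. The 18 shorter genes (590 to 3754 bp) had a median of −0.11, with 3 called lower and 1 higher, and the 18 longer (3795 to 116825 bp) had −0.73, with 7 called lower and none higher. Tested genes in the same ranges of length had medians of 0.098 and −0.12. When the trends with length and GC content were removed from each library, *Actn2* (−0.88, adjusted P of 0.093) and *Hrc* (−1.01, adjusted P of 0.0921) were called by limma, against 2.2% of all tested genes. The median of the 36 was then −0.40 and 32 lay below 0.

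**Figure D4:**
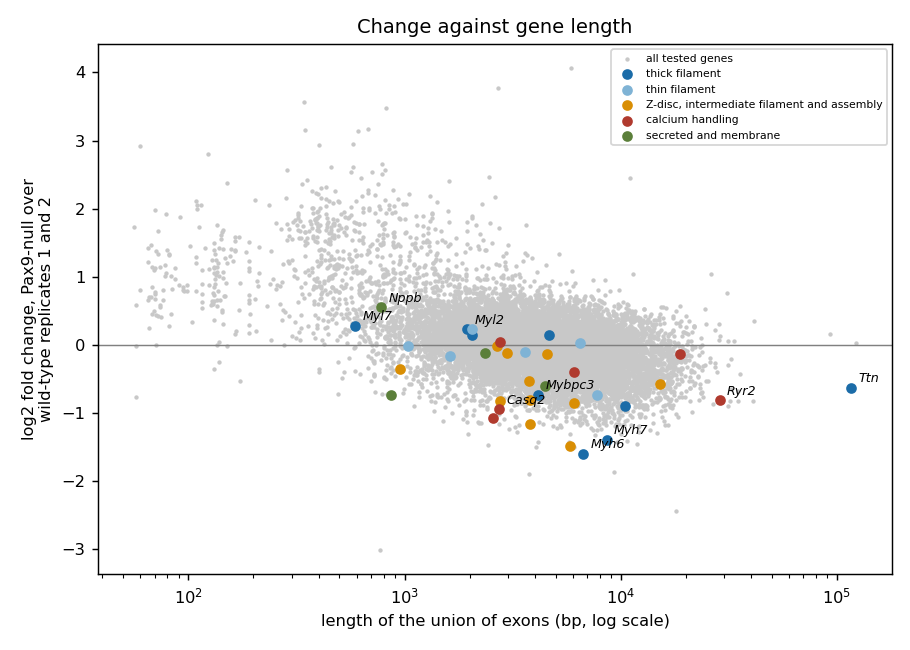
Log2 fold change without wild-type replicate 3 against gene length on a log axis, (length of the union of exons in bp) for the 36 heart muscle genes, coloured by role, and all tested genes in grey. The 18 longer genes have a median of −0.73 and the 18 shorter a median of −0.11.

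Differences between a pair of heart genes in the same library do not move with the amount of heart muscle sampled, if both come from it. *Myh6* minus *Myh7* was −0.33, 0.36 and −0.27 in the *Pax9*-null and 0.053, 0.22 and −2.58 in the wild-type replicates on the log2 scale, with overlap of the genotypes (exact permutation test, two-sided, P of 0.8 with 6 libraries and 0.6 without the last). *Myl7* minus *Myl2*, atrial against ventricular, was 2.05, 2.26 and 2.05 against 1.93, 2.20 and 6.46, where the last rests on 6 reads of *Myl2* (exact P of 0.7 and 0.8). *Tnni3* minus *Tnni1* was −0.73, −0.98 and −0.86 against −1.28, −1.11 and −4.85, so that the *Pax9*-null values lay higher in every library (exact P of 0.1 and 0.2). These are the smallest values that 3 against 3 and 3 against 2 libraries allow. *Pln* minus *Atp2a2* also lay higher in every *Pax9*-null library, at −2.17, −2.88 and −2.63 against −3.03, −2.97 and −6.56 (exact P of 0.1 and 0.2). *Atp2a2* is expressed in many tissues, so that the condition that both come from heart muscle may not hold for this pair. In wild-type replicate 3, *Atp2a2* was at 56.4% and *Pln* at 4.77% of the mean of the other wild-type replicates. Other pairs also fell unequally there, with *Tnni1* at 12.0% and *Tnni3* at 0.952%, and *Myl7* at 4.47% and *Myl2* at 0.213%. *Tnnt2* (5.14%), *Ryr2* (7.32%) and *Actc1* (7.6%) lay closer together. Whether both genes of a pair come from heart muscle alone was not tested.

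*Tnnt2* minus *Actc1* was −5.21, −4.99 and −4.99 against −4.28, −4.74 and −5.08, overlapping through wild-type replicate 3 alone (exact P of 0.3 and 0.2). *Ryr2* minus *Actc1* was −7.77, −7.21 and −7.72 against −6.46, −7.39 and −6.98 and overlapped (exact P of 0.2 and 0.4). *Nppa* minus *Nppb* was −1.62, −2.23 and −2.65 against −0.19, −1.58 and −1.69, where the last rests on 0 and 1 reads and is the 1 wild-type value within the *Pax9*-null range (exact P of 0.2 and 0.2). Over the 7 pairs compared, the lowest P adjusted by the Benjamini-Hochberg method was 0.35 with and without wild-type replicate 3. None could pass a threshold of 0.05 in this design.

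**Figure D5:**
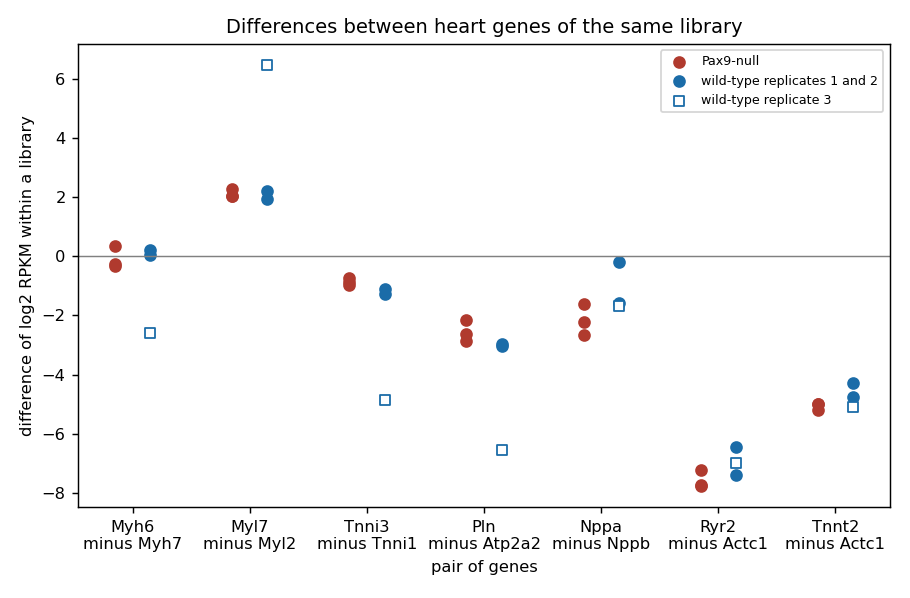
Within-library differences between pairs of heart muscle genes in log2 units, with 1 point per library, red for *Pax9*-null, blue for wild-type replicates 1 and 2 and an open square for wild-type replicate 3. The *Pax9*-null points lie above all wild-type points for *Tnni3* minus *Tnni1* and for *Pln* minus *Atp2a2*.

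Other genes of heart muscle, from lists chosen by function, were read beside the 36. Of all tested genes, limma called 12.0% lower and 14.7% higher with 6 libraries, and 6.64% and 9.16% without wild-type replicate 3. Of 29 further sarcomere and muscle genes, limma with 6 libraries called 1 higher, *Myoz2* (log2 fold change of 1.72, adjusted P of 0.0949), and without wild-type replicate 3 it called 6 lower and none higher. *Fhod3* (−0.47, adjusted P of 0.0706), a formin of actin assembly, and *Unc45b* (−0.70, adjusted P of 0.0723), a myosin chaperone, had the lowest P of these. In wild-type replicate 3, 23 of the 29 were the lowest of the 6 libraries, and their median lay at −2.15 on the log2 scale from the other wild-type replicates. Of 26 genes of calcium entry, conduction and pacing, 2 were called lower with 6 libraries, *Cacna1g* (−0.79, adjusted P of 0.0655) and *Cacna1h* (−0.78, adjusted P of 0.0931). *Jph2*, which couples the reticulum to the surface membrane, and *Cacna1h*, a T-type calcium channel, were lower without wild-type replicate 3 (−0.65 and −0.98, adjusted P of 0.0702 and 0.0827). Of 19 cardiac transcriptional regulators, *Tbx2*, a repressor of chamber muscle genes, was lower with 6 libraries (−0.64, adjusted P of 0.042) and without wild-type replicate 3 (−0.66, adjusted P of 0.0754), and *Hopx*, a cofactor in heart muscle growth, was higher without it (0.52, adjusted P of 0.0788). Without wild-type replicate 3, all 7 smooth muscle markers and all 9 endothelial and endocardial markers lay below 0, with 3 and 2 called lower. Their part in the differences of heart muscle genes was not tested.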

How the data were processed

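RNA of 3 *Pax9*-null and 3 wild-type embryos was sequenced, and the members and gene lists used here were chosen with earlier results of these data known. The submitters' processing notes name Trimmomatic 0.32, STAR 2.5.1a and featureCounts 1.5.1 and the mouse build GRCm38. The authors deposited one table of log2 RPKM, which divides reads by gene length and effective library size with a prior count. The reads behind values were worked out with gene lengths of GENCODE M21, and 85.5% of values below 1000 reads were whole within 0.05 of a read. Reads are given only for genes where they were whole. The authors ran featureCounts with default settings, which do not use strand, so reads of a gene and of an overlapping opposite-strand gene cannot be told apart. Besides *Myh6* and *Myh7*, exons of *Atp2a2*, *Des*, *Myl2*, *Myl3*, *Myl4*, *Myom1*, *Nppa*, *Pln*, *Slc8a1* and *Ttn* overlap transcripts of the opposite strand. Exons of *Nexn*, *Popdc2* and *Tnni3* overlap another gene on the same strand.

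Differences were tested with limma 3.58.1 in R 4.3.3 on the deposited values, with a trend of variance on mean, two-sided, over the 13547 genes whose mean reached 0.5 RPKM. Benjamini-Hochberg adjustment ran over all tested genes, and a threshold of 0.1 was used. Each library is 1 embryo, so that P values measure the spread between embryos. All members are named; values in every library are given for those called, for the most abundant of each role and for the genes of the within-library differences. Non-members are given as counts by list, with the 2 of lowest P named, except that a result of the calcium entry, conduction and pacing list is not reported here. Alternatives were other pseudocounts, filters, scalings, removal of trends with length and GC content, a replicate block, library weights, another variance prior and each library left out. *Sln* was not analysed here, so that the difference between *Sln* and *Pln* could not be computed. Fits with wild-type replicate 3 left out were repeated under the same alternatives, which was decided after seeing the data.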

Additional observations from a re-analysis of the deposited data

How the results depend on the processing

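Of all tested genes, 3611 were called with 6 libraries, 1335 at an adjusted P of at most 0.05, 503 with length and GC trends removed, 1377 with a replicate block, 227 with a replicate block and those trends removed, and 175 to 3578 with 1 library left out. None of the heart muscle genes was called with 6 libraries under the alternatives, except 1 on the log2(RPKM + 1) scale and 11 without wild-type replicate 3, so the range with 1 library left out was 0 to 11. The number with genotypes not overlapping was 1 among genes whose mean reached 5 RPKM, and 2 to 17 with 1 library left out. Without wild-type replicate 3, chosen for repetition after seeing the data, 11 were called, 5 at an adjusted P of at most 0.05, 4 without a variance trend, 2 with length and GC trends removed, 8 with a replicate block, 1 with a replicate block and the trends removed, and 0 to 19 with another library left out. All tested genes called in those fits numbered 2141, 427, 639, 297, 690 and 161, in that order, and 126 to 4715 with another library left out. The cause of these shifts was not tested. Correlations of same-numbered deviations were −0.0199, −0.173 and 0.26. With 3 libraries per genotype they cannot show whether replicate numbers pair the libraries. The number of libraries and the few reads of wild-type replicate 3 limit the precision.

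With 6 libraries, log2 fold changes of genes not called changed sign as follows. Trends removed, with or without the replicate block, gave 0.48 for *Myh7*, 0.011 for *Ttn* and 0.10 for *Xirp1*. Library weights gave 0.85 for *Myh7*, 0.081 for *Ttn*, 0.48 for *Nexn*, 0.46 for *Xirp1*, 0.069 for *Atp2a2* and 0.25 for *Hrc*. Median centring gave 0.016 for *Myh7* and the log2(RPKM + 1) scale −0.035 for *Actn2*. With 1 library left out the ranges with a change of sign were *Myh6* −1.6 to 2.1, *Myh7* −1.39 to 1.0, *Actc1* −0.17 to 1.72, *Tnnt2* −0.73 to 1.5, *Tnni1* −0.1 to 1.48, *Tnnc1* −0.014 to 1.97, *Ttn* −0.63 to 0.31, *Mybpc3* −0.73 to 2.31, *Myom1* −0.89 to 1.3, *Actn2* −1.16 to 0.97, *Ldb3* −0.86 to 1.07, *Csrp3* −0.019 to 3.06, *Tcap* −0.36 to 1.84, *Nebl* −0.58 to 1.17, *Des* −0.53 to 0.39, *Smyd1* −0.13 to 1.29, *Nexn* −0.81 to 0.56, *Xirp1* −1.48 to 0.6, *Abra* −0.12 to 2.93, *Nppa* −0.74 to 3.58, *Bmp10* −0.6 to 3.32, *Ryr2* −0.81 to 1.28, *Atp2a2* −0.4 to 0.091, *Hrc* −1.08 to 0.3, *Slc8a1* −0.14 to 1.58, *Popdc2* −0.12 to 1.64, *Hspb7* −0.83 to 1.5. Without wild-type replicate 3, quantile normalization gave −0.016 for *Myl2*, −0.13 for *Myl7* and −0.17 for *Tpm1*. Trends removed gave −0.0031 for *Myl3*, −0.25 for *Myl7*, −0.15 for *Nppb* and −0.41 for *Pln*, and with the replicate block −0.093 for *Myl7*, −0.19 for *Nppb* and −0.22 for *Pln*. *Tnnc1* was at 0.031, 0.0063 and 0.0089 and *Csrp3* at 0.026, 0.068 and 0.036 with median centring, the replicate block and library weights. With another library left out the ranges were *Myl3* −0.015 to 0.29, *Myl4* −0.023 to 0.3, *Tnnc1* −0.093 to 0.065, *Tpm1* −0.025 to 0.062, *Csrp3* −0.18 to 0.071, *Pln* −0.19 to 0.25.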

Other observations

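Marker lists of other cell types were not uniform over the libraries. For comparison, limma with 6 libraries called 12.0% of all tested genes lower and 14.7% higher. Summed RPKM of 9 erythroid markers was 4994.4, 2682.3 and 4543.8 in the *Pax9*-null and 2433.3, 2543.4 and 2497.3 in the wild-type replicates, and limma with 6 libraries called 2 of the 9 higher and none lower. All 9 lay above 0. The sums in *Pax9*-null replicates 1 and 3 were the highest, and the genotypes did not overlap. Of 5 epicardial and septum transversum markers, with sums of 30.5, 32.4 and 22.1 against 29.5, 24.1 and 16, limma called 1 higher and none lower. Of 6 skeletal muscle markers 1 was called lower, and of 7 pharyngeal endoderm markers none was called, with 1 having an unadjusted P under 0.05. Of 8 neural tube markers 1 was called lower. Without wild-type replicate 3, limma again called 1 neural tube marker lower. It then called none of the erythroid, epicardial and septum transversum, skeletal muscle or pharyngeal endoderm markers. Of all tested genes it called 6.64% lower and 9.16% higher in that fit.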
